A study of Salmo salar with 60 samples.

Results

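The distal intestine of salmon (Salmo salar, the Atlantic species) was compared between the first 2 days on a soybean meal diet and day 0. The comparison took the 20 fish whose titles give day 1 or day 2 of soybean meal and tank 1 or 2, and set them against the 9 fish titled day 0. These 29 arrays are part of a series of 60. One array, titled day 1 and tank 0, was left out because the 2 tanks of the design are numbered 1 and 2.

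Soybean meal provokes an inflammation of the distal intestine in salmonids, known as soybean meal-induced enteritis. It is known for shortened mucosal folds, a widened lamina propria with infiltrating leukocytes, and the loss of the absorptive vacuoles of the enterocytes. The distal intestine of salmon takes up macromolecules and holds many immune cells, and it recovers when the soybean meal is withdrawn. Samples from the first days ask which transcripts move before or as the tissue starts to change.

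All fish were of the Sunndalsøra breed, weighed 500 to 600 g at the start and were kept in seawater at 25 to 30 fish a tank. They had been adapted for 7 days to a reference diet with 563 g of fishmeal per kg as its sole protein source. The day 0 fish were sampled on that diet. The fish of days 1 and 2 had then received a diet in which 200 g per kg of hexane-extracted soybean meal replaced part of the fishmeal. Only fish with gut content throughout the intestine were taken. Day 0 held 4 fish of tank 1 and 5 of tank 2, and days 1 and 2 held 5 fish of each tank. The titles name no fish kept on fishmeal on days 1 and 2, so the diet and the time since day 0 cannot be told apart in this comparison.

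Each 2-colour oligonucleotide array took the Cy5-labelled RNA of 1 fish together with Cy3-labelled RNA of a common pool of 18 fish, 3 from each sampling day. Levels are given here as log2(Cy5/Cy3), the ratio of a fish to that pool, and a change is the difference of mean log2 ratios between fed and day 0 fish. The median Cy5 signal of an array ran from 58.5 to 100 scanner units over the 29 arrays, and the median Cy3 signal from 53.5 to 92. It averaged 73.4 ± 14.3 (SD, n = 9) in Cy5 on day 0, 65.2 ± 5.52 (n = 10) on day 1 and 79.8 ± 14.7 (n = 10) on day 2. Between pairs of arrays, the correlation of log ratios ran from -0.4 to 0.62. No dyes were swapped, and the direction of every ratio rests on the dyes that the labels state. Probes carry a position on the array (column and row, as in C213R081) and no gene name, so genes, gene groups and marker genes of the tissue are not analysed here. A whole-tissue ratio also cannot tell fewer cells of a type from less RNA per cell.

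No transcript passed the test after the first 2 days. With limma, 0 of 43627 probes (0%) had a Benjamini-Hochberg adjusted p under 0.05 for days 1 and 2 against day 0, and the smallest adjusted p rounded to 1. An unadjusted limma p under 0.05 was found for 1171 probes, 2.68% of those tested, of which 590 were higher and 581 lower in the fed fish. A p under 0.01 was found for 179 probes (0.41%) and one under 0.001 for 12. Without any change, 5%, 1% and 0.1% would be counted on average. An exact Wilcoxon rank sum test of each probe also called 0 probes after adjustment and counted 1257 at an unadjusted p under 0.05. Its smallest p was 3.83e-05, where a complete separation of the 20 and 9 fish would have given 2e-07. No probe had all 20 fed fish on one side of all 9 day 0 fish (0%).

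The share of probes with a small p was lower among brighter probes, down to the class from 1000 to 10000 in mean signal. Probes were called bright when their mean intensity over both channels equalled a signal above 200, which held for 16234. Of these, 117 (0.721%) had an unadjusted p under 0.05 in limma. Among the 19117 probes with a mean signal under 50, 835 (4.37%) did so, with 404 higher and 431 lower. Among the 6892 probes from 1000 to 10000, 26 (0.377%) did so, and among the 1790 probes over 10000, 8 (0.447%), with 2 higher and 6 lower.

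**Figure D1:**
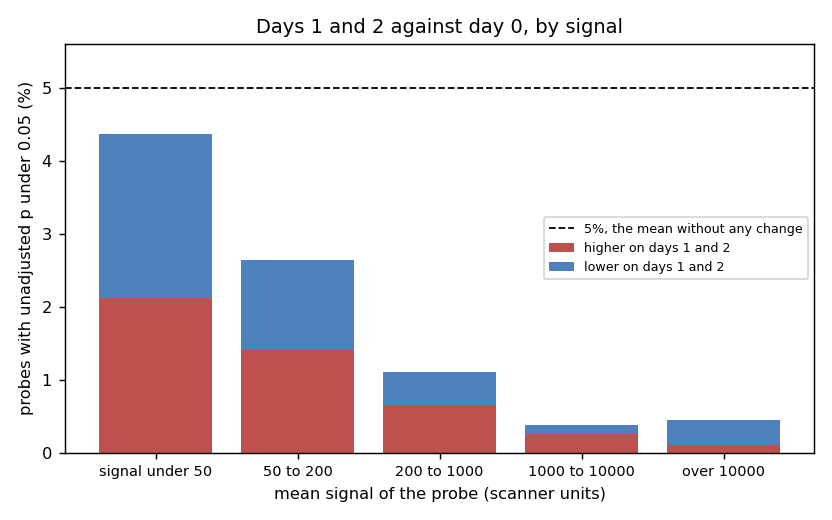
Percentage of probes with an unadjusted limma p under 0.05 for days 1 and 2 against day 0 (y axis), by the probe's mean signal over both channels (x axis), with probes higher in the fed fish in red and lower in blue. All 5 bars lie below the dashed line at 5%, and the bar falls from 4.37% for the dimmest class to 0.377% for probes from 1000 to 10000, with 0.447% for those over 10000.

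Over all probes, the difference between day 0 and the fed days held 2.17% of the variation among the 29 fish, against a mean of 3.57% over all 10015005 splits of the fish into 20 and 9 (exact permutation p = 0.991, one-sided). Nearly all splits gave a share at least as large. For bright probes the median SD between fish was 0.345 log2 units on day 0 (n = 9), 0.339 on day 1 and 0.368 on day 2 (n = 10 each). The median absolute change of bright probes from day 0 was 0.0686, where the median standard error of such a change was 0.143. Over all probes, the root mean square SD of day 0 fish differed from that of fed fish by -0.00208 on the log2 scale (exact permutation p = 0.989, two-sided).

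With fish treated as independent, the 20 fed fish narrowed the range of changes that the data allow. Each day came from 2 tanks, and the intervals hold no term for variation between tanks, so they can be too narrow. The 95% confidence interval of the change lay within 2-fold in either direction for 97.8% of bright probes, and within 1.5-fold for 85.8%. Taken alone, day 1 bounded 77.3% and day 2 bounded 77.7% of bright probes within 1.5-fold. The median half-width of the interval was 0.285 log2 units for bright probes with the 2 days together, and 0.327 for either day. An offset of 50 was added to both channels before the ratio was taken, which draws ratios toward 0. Without it, 80.1% of bright probes were bounded within 1.5-fold for the 2 days together, 69.1% for day 1 and 69.4% for day 2. The mean signal was under 50 in 43.8% of probes. Even a complete loss of signal shifts their ratio with the offset less than 2-fold, so no decrease is bounded there. At the other end, 41 probes had a Cy5 signal over 60000 on all 29 arrays. Flag code 3, which has no key, was carried by 125 probes in both channels on all 29 arrays. It does not mark high signals alone: C041R098, with a Cy5 signal of 2503 at most, carried it on 1 array. The 2 brightest probes, C177R123 and C141R127, were at 64033 to 65350 in Cy5 on all 29 arrays, near the highest value of 65441 on any array. An increase of such transcripts could not be measured.

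The 10 bright probes in each direction with the smallest p, among those whose day 1 and day 2 means lay on the same side of day 0, were described fish by fish. None passed the adjusted threshold, so their order is a ranking and not a call. Their day 1 and day 2 values lie on one side because the choice required it.

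Probe C213R081 had the smallest p of all bright probes. On day 0 its log2 ratio to the pool had a lowest value of 0.06, a median of 0.16 and a highest value of 0.51 over 9 fish. On day 1 it ran from -0.35 through a median of -0.06 to 0.35, and on day 2 from -0.54 through -0.17 to 0.29. Of the 20 fed fish, 18 lay below every day 0 fish, and the groups overlapped through the other 2. The change was -0.34 with a standard error of 0.09, or 1.27-fold lower (limma unadjusted p = 0.000202, adjusted p = 1). It was -0.39 in tank 1 and -0.30 in tank 2. Its unadjusted limma p within a tank was 0.00451 in tank 1 and 0.0164 in tank 2. Of the 16234 bright probes, only C213R081 had such a p under 0.05 with one sign in both tanks, while 6 had it with opposite signs. The tank values come from the same fish as the pooled p, so they are a description and not a check.

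Probe C156R087 followed among the lower probes. It ran from -0.50 through a median of -0.14 to 0.94 on day 0, from -0.78 through -0.56 to -0.13 on day 1, and from -0.91 through -0.44 to 0.34 on day 2. All 10 fish of day 1 lay below the day 0 mean, and 7 of 10 fish of day 2 did. That mean, 0.01, exceeded the day 0 median, so most day 0 fish lay below it too. The change of C156R087 was -0.53 on day 1 and -0.34 on day 2, and -0.44 ± 0.15 (SE) for both days together. Without day 0 replicate 7, the fish at 0.94, the change was -0.32. Probe C188R092 lay between -0.24 and 0.42 on day 0 with a median of 0.18, and between -0.72 and 0.30 over the fed fish with a median of -0.09. Its change was -0.28 ± 0.10 (SE), and 18 of 20 fed fish were below the day 0 mean. Both probes had overlapping groups.

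Among the probes higher in fed fish, C010R013 had the smallest p. Its day 0 values ran from -0.65 through a median of -0.23 to 0.36. On day 1 they ran from -0.46 through 0.13 to 0.42, and on day 2 from -0.26 through 0.04 to 0.50. The change was 0.34 ± 0.11 (SE), or 1.27-fold, and 18 of 20 fed fish lay above the day 0 mean, but only 3 above the highest day 0 fish. Probe C036R023 ran from -0.88 through -0.50 to 0.40 on day 0, from -0.64 through 0.10 to 1.38 on day 1, and from -0.22 through 0.42 to 1.16 on day 2. All 10 fish of day 2 and 8 of day 1 were above the day 0 mean, and the change was 0.61 ± 0.20 (SE). Probe C114R137 had the largest change of the 20, at 0.65 ± 0.25 (SE). Its fish ran from -0.59 through -0.13 to 0.62 on day 0, from -0.31 through 0.14 to 1.54 on day 1, and from 0.07 through 0.67 to 1.91 on day 2. The change of C114R137 in tank 1 was 0.14 ± 0.40 (SE) on day 1 and 1.34 ± 0.40 on day 2. In tank 2 it was 0.79 ± 0.38 and 0.37 ± 0.38. Whether the tanks differed in the order of the days was not tested.

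Probe C172R094 was the only one of the 20 with a signal above 10000, with a median Cy5 signal of 34100 on day 0. It ran from -1.39 through -0.65 to 0.58 on day 0 and from -0.78 through 0.25 to 1.14 in fed fish, a change of 0.56 ± 0.19 (SE). It carried flag code 3 on 12 of the 29 arrays and reached 65350.5 in Cy5, which is near the highest value on any array. Its change was 0.91 in tank 1 and 0.28 in tank 2. Its day 0 mean was -0.73 in tank 1 (n = 4) and -0.09 in tank 2 (n = 5). On days 1 and 2 its means were 0.07 and 0.3 in tank 1, and 0.35 and 0.03 in tank 2.

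A further 4 probes had 19 of 20 fed fish on one side of the day 0 mean or at least 12 beyond every day 0 fish, and were picked out after their values were seen. Probe C042R088 ran from -0.04 through 0.11 to 0.92 on day 0, from -0.77 through -0.20 to 0.46 on day 1, and from -0.83 through -0.16 to 0.48 on day 2. It had 14 of 20 fed fish below the lowest day 0 fish, while the others reached well into the day 0 range, and its change was -0.41 ± 0.16 (SE). Probe C124R080 ran from -0.37 through -0.06 to 0.28 on day 0, from -0.11 through 0.09 to 0.51 on day 1, and from 0.09 through 0.35 to 0.59 on day 2. It had 12 fed fish above the highest day 0 fish, and its change was 0.17 on day 1 and 0.39 on day 2. Probe C230R053 lay at -0.78 to 0.50 on day 0 with a median of -0.47, at -0.48 to 0.72 on day 1 with a median of 0.03, and at -0.20 to 1.07 on day 2 with a median of 0.52. All 10 fish of day 2 and 9 of day 1 were above its day 0 mean, and its change was 0.47 ± 0.17 (SE). Probe C032R152 lay at -0.56 to 0.95 on day 0 with a median of -0.24, at -0.69 to 0.15 on day 1 with a median of -0.40, and at -0.84 to -0.24 on day 2 with a median of -0.57. It lay below the day 0 mean in 19 of 20 fed fish, and the groups overlapped. That mean, -0.04, exceeded the day 0 median, so most day 0 fish lay below it too.

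**Figure D2:**
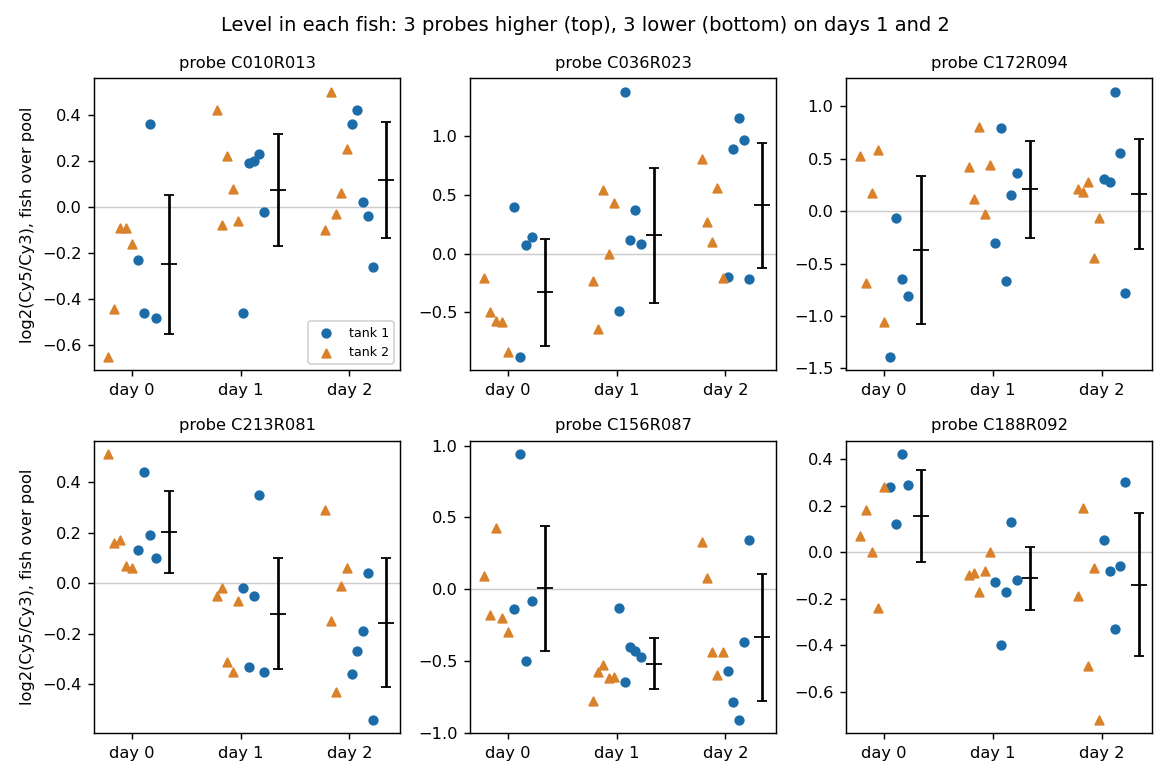
Log2(Cy5/Cy3) of each fish over the pool (y axis) on days 0, 1 and 2 (x axis) for the 3 higher and 3 lower probes with the smallest p, with tank 1 as blue circles and tank 2 as orange triangles, and bars for the mean ± SD of 9, 10 and 10 fish. The groups overlap in all 6 panels, and C213R081 has 18 of 20 fed fish below the lowest day 0 fish.

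Over the 10 higher probes the change ran from 0.26 to 0.65 with a median of 0.32, that is 1.2- to 1.57-fold. Over the 10 lower probes it ran from -0.44 to -0.24 with a median of -0.35, or 1.18- to 1.35-fold. Between 16 and 19 of the 20 fed fish lay above the day 0 mean for the higher probes, and between 14 and 19 below it for the lower ones. The fed and day 0 fish overlapped in all 20 probes. The unadjusted p ran from 0.000202 to 0.0162 in limma, and every adjusted p rounded to 1.

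**Figure D3:**
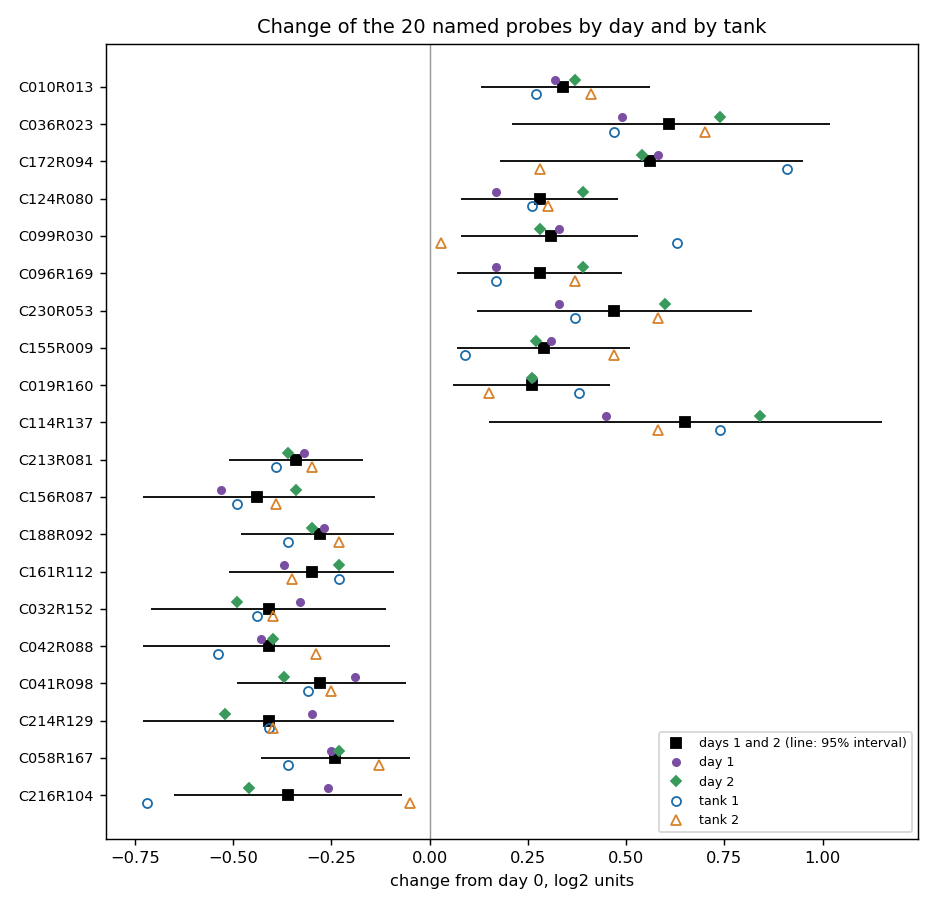
Change from day 0 in log2 units (x axis) of the 20 named probes (y axis) for both days together with its 95% interval (black), for each day (filled symbols) and for each tank (open symbols). All symbols of a probe lie on one side of 0, the smallest being 0.03 for C099R030 in tank 2 and -0.05 for C216R104 in tank 2.

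All 20 probes had the same sign in both tanks, although the choice did not require it. The 2 tanks make up the values used for the choice, so this is a description and not a check. Their sizes were uneven. The change of C099R030 was 0.63 in tank 1 and 0.03 in tank 2, and that of C216R104 was -0.72 in tank 1 and -0.05 in tank 2. The day 0 mean of C099R030 was -0.49 in tank 1 (n = 4) and 0.01 in tank 2 (n = 5). On days 1 and 2 its means were 0.09 and 0.18 in tank 1, and 0.14 and -0.05 in tank 2. The day 0 mean of C216R104 was 0.71 in tank 1 and 0.26 in tank 2. On days 1 and 2 its means were 0.07 and -0.1 in tank 1, and 0.32 and 0.1 in tank 2. Whether the day 0 or the fed fish made the tanks uneven was not tested. For these probes the difference between tanks had unadjusted limma p-values of 0.00594 and 0.0243 and adjusted values that rounded to 1. On the later days of the series, which share the day 0 fish, the higher probes had changes of 0.12 to 1 on day 3, 0.02 to 0.61 on day 5 and 0 to 0.71 on day 7. The lower probes stood at -0.33 to 0.13, -0.37 to 0.06 and -0.41 to -0.08.

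The arrays lay on 15 slides, and 4 slides held both day 0 fish (5) and fed fish (4). Within these slides, 67 of 80 differences of the 20 probes had the sign of the pooled change, and 8 probes had it on each of the 4 slides, C213R081 and C010R013 among them. These fish are among those used to choose the probes, so the count of signs is a description and not a check. With slide as a block the change of C096R169 was 0.17 instead of 0.28.

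Each day was also set against day 0 on its own. Day 1 gave 0 of 43627 probes (0%) after adjustment with limma and 1230 at an unadjusted p under 0.05 (2.82%), 624 higher and 606 lower. Day 2 gave 0 (0%) and 1309 (3%), 690 higher and 619 lower. With each array centred on its median in place of loess, 67.5% of the day 1 probes were higher instead of 50.7%. No probe separated all 10 fish of day 1 from all 9 of day 0 (0%), while 3 did so on day 2 (0.00688%). A complete separation gives an exact Wilcoxon p of 2.17e-05, and the smallest adjusted p of that test for day 2 was 0.315.

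The 3 probes of day 2 were named because their groups did not overlap, after their values were seen. Probe C116R002 was at -0.24 to 0.49 on day 0 with a median of 0.00, and at -0.51 to -0.25 on day 2 with a median of -0.37. The day 1 fish of C116R002 ran from -0.36 to 0.47 with a median of 0.10, across the day 0 range. Its day 2 change was -0.41 ± 0.11 (SE), with a limma adjusted p that rounded to 1. The spread on day 2 was 0.08 (SD, n = 10), against 0.22 on day 0 (n = 9) and 0.25 on day 1 (n = 10). Probes C228R018 and C166R076 were dim, with median day 0 Cy5 signals of 24.5 and 22. Their day 2 changes were 0.43 and 0.25, and without the offset 1.39 and 0.85.

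The fish of day 2 were then set against those of day 1. With limma, 0 probes (0%) passed the adjusted threshold for day 2 against day 1, with a smallest adjusted p of 0.666 and 1884 at an unadjusted p under 0.05 (4.32%), 952 higher and 932 lower on day 2. The 2 bright probes with the smallest p in each direction were C152R022 and C130R076, higher on day 2, and C200R049 and C116R002, lower. C152R022 ran from -0.83 through -0.28 to -0.03 on day 1 and from -0.27 through 0.17 to 0.28 on day 2, around day 0 values of -0.38 to 0.19. Its day 2 minus day 1 difference was 0.44 ± 0.11 (SE), from -0.24 against day 0 on day 1 to 0.20 on day 2. C130R076 behaved alike, at -0.19 on day 1 and 0.37 on day 2 against day 0. C200R049 stood 0.27 above day 0 on day 1 and -0.21 on day 2. In C152R022, C130R076 and C200R049 the 2 days lay on opposite sides of day 0 and their mean change was between -0.02 and 0.09. The limma adjusted p of the 4 differences was 0.926 to 0.999.

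The tanks gave no shared direction over all probes. In tank 1, 10 fed and 4 day 0 fish gave 0 probes (0%) after adjustment with limma and 1212 at an unadjusted p under 0.05 (2.78%), 652 higher and 560 lower. In tank 2, 10 fed and 5 day 0 fish gave 0 (0%), a smallest adjusted p of 0.114, and 1267 (2.9%), 653 higher and 614 lower. All fed fish lay on one side of all day 0 fish for 56 probes in tank 1 (0.128%) and 21 in tank 2 (0.0481%). With so few day 0 fish in a tank, some probes separate without any change. The number to be counted then was not computed, so these are not calls. The tanks share no fish. Of the 1212 probes of tank 1, 48.3% had the same sign in tank 2, against 47.1% of all probes. Of the 1267 probes of tank 2, 48.3% had the same sign in tank 1. Of the 43627 probes, 23 had an unadjusted limma p under 0.05 in both tanks with one sign (14 higher and 9 lower), and 32 with opposite signs. The number of such probes without any change was not computed, so these are not calls either.

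Across the 16234 bright probes the changes in the 2 tanks correlated at r = -0.2, with the same sign for 45.1%. Probes share arrays and are not independent replicates. Without the 4 fish that scored lowest on the first principal component, described below, r was 0.05 and 52.9% had the same sign. A day 0 fish of tank 2 was among them, and the others were of tank 1. The test of the difference between the tanks gave 0 probes (0%) after adjustment with limma and 1394 at an unadjusted p under 0.05 (3.2%).

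**Figure D4:**
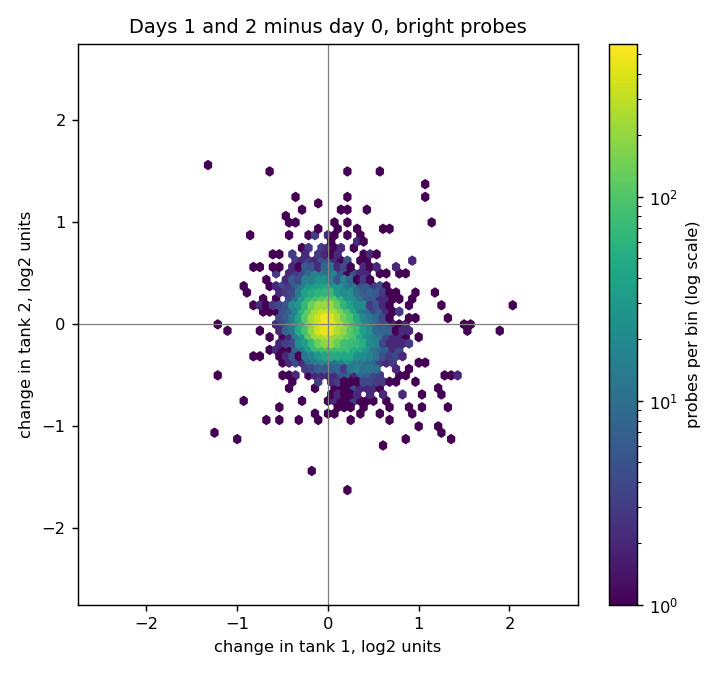
Change of each bright probe from day 0 to days 1 and 2 in tank 1 (x axis) against that in tank 2 (y axis), in log2 units, as counts of probes per hexagon on a log colour scale. The cloud is centred on 0 with no upward slope, and 45.1% of the 16234 probes lie in the 2 quadrants of equal sign.

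The smallest p within a tank belonged to a dim probe in each case, both named after their values were seen. Probe C249R165, with a median day 0 Cy5 signal of 34, was at -0.55 ± 0.27 (SD, n = 5) on day 0 in tank 2, 0.27 ± 0.28 (n = 5) on day 1 and 0.45 ± 0.21 (n = 5) on day 2. All 10 fed fish of tank 2 lay above all 5 day 0 fish there. In tank 1 it was at -0.17 ± 0.21 (n = 4), -0.30 ± 0.32 (n = 5) and 0.05 ± 0.33 (n = 5), with overlapping groups. Its change was 0.91 in tank 2 (limma adjusted p = 0.114) and 0.04 in tank 1 (limma adjusted p = 1). The difference between tanks was -0.87, tank 1 minus tank 2 (limma unadjusted p = 0.00123, adjusted value rounding to 1). Probe C137R048 changed by -0.64 in tank 1 and -0.05 in tank 2, with limma adjusted p-values that rounded to 1. Its day 0 mean was 0.71 in tank 1 (n = 4) and 0.16 in tank 2 (n = 5). The means of its fed fish lay between 0.05 and 0.14 on each day in each tank.

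The largest changes were in transcripts that varied widely between fish. The estimate exceeded 2-fold for 8 probes, 6 higher and 2 lower, of which 7 were bright. Their SD within a group ran from 0.79 to 2.9 log2 units, and their unadjusted limma p from 0.00592 to 0.253. Probe C197R161 lay at -2.44 to 0.34 with a median of -1.91 on day 0, and at -2.57 to 1.69 with a median of -0.38 in fed fish, a change of 1.20 ± 0.49 (SE). The highest fed fish were far above the day 0 fish while the lowest matched them. Probe C130R168 lay at -1.35 to 1.28 on day 0 with a median of 0.42, and reached down to -4.59 in fed fish with a median of -0.73. For probe C136R102 the wide range was in the day 0 fish too, from -5.79 through a median of 0.36 to 1.64, against -4.03 through 0.43 to 2.26 in fed fish. Its change of 1.10 had a standard error of 0.77, and the medians of the groups differed little.

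The change from day 0 exceeded 1.5-fold for 43 of the 16234 bright probes with days 1 and 2 together, 32 higher and 11 lower. It did so for 72 on day 1 and 63 on day 2. In the same fit and against the same day 0 fish, it did so for 240 on day 3, 284 on day 5 and 66 on day 7. These counts are estimates past a size and not calls, they share the day 0 fish, and their difference was not tested.

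Principal components of the 29 arrays did not separate the days. The first component held 29.7% of the variation and the second 6.92%. First component scores had a median of 21.8 on day 0 (-95.9 to 36.9), 20.4 on day 1 (-94.9 to 30.6) and 24.6 on day 2 (-123 to 37.7). The mean of fed fish exceeded that of day 0 fish by 4.6 (exact permutation p = 0.806, two-sided). Of the 29 fish, 4 scored below -60 and stood apart from the rest, whose lowest score was -30.1. They were replicates 2 and 7 of day 0, replicate 7 of day 1 and replicate 10 of day 2, so 2 of 9 day 0 fish and 2 of 20 fed fish. Replicate 2 of day 0 was of tank 2 and the other low fish were of tank 1. In these 4 fish the log2 ratio of median Cy5 to median Cy3 signal ran from 0.29 to 0.66. It ran from -0.56 to 0.24 in the rest of the 29 fish. The part of this ratio in their scores was not tested. With these 4 arrays left out, 0 probes passed the adjusted threshold in limma, and 1256 had an unadjusted p under 0.05. The change of C032R152 was then -0.21 instead of -0.41 and that of C216R104 was -0.22 instead of -0.36.

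**Figure D5:**
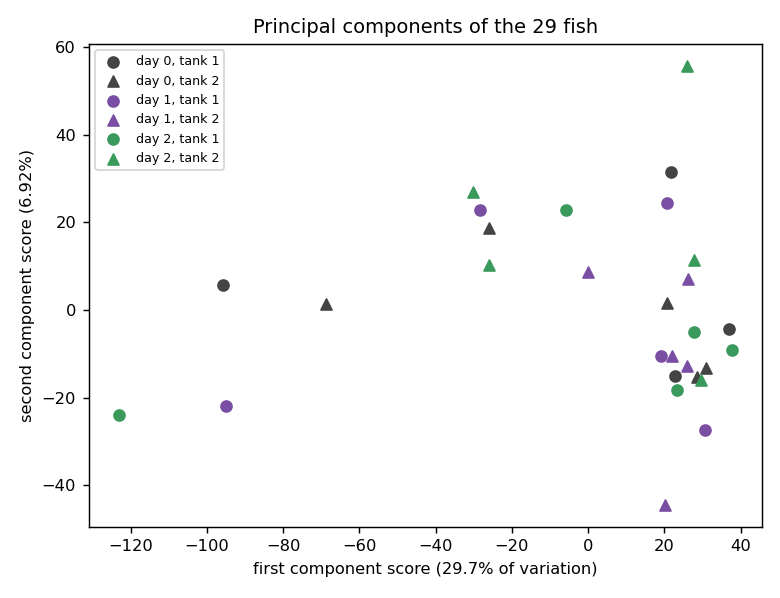
Scores of the 29 fish on the first (x axis) and second (y axis) principal components of the log2 ratios, coloured by day and with circles for tank 1 and triangles for tank 2. Fish of the 3 days lie among each other, and the 4 fish below -60 on the first component come from all 3 days.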

How the data were processed

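Each array file held scanner intensity values of 45220 spots in both channels, deposited by the authors as background-corrected median signals, as the file headers name them. The sources used here do not state how the background was corrected. A table of log2 ratios of the same arrays was deposited by the authors too, with the median of each probe over all 60 arrays at 0 and column medians of -0.0233 to 0.0254. Its within-array scaling is unstated, its direction was that of Cy5 over Cy3, and each column correlated best with its own array's scanner values (0.949 to 0.997). Flag codes have no key. Control spots (1531) and 62 probes with flag code 1 on some array were left out.

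Signals below 0 were set to 0, 50 was added, and log2(Cy5/Cy3) was normalized by loess within each array. Means of the 6 days (and of day by tank) were fitted to 59 arrays with limma 3.58.1 in R 4.3.3, with p-values adjusted over 43627 probes. They treat fish as independent, although a day came from 2 tanks. Exact tests enumerated all splits of the 29 fish; the median SD could not be enumerated, so the root mean square SD was tested. The fit was tried on values of these arrays, centred on each day and shuffled between arrays, with shifts of known size added to some probes. The share of small shifts that it recovered is not given here. Named probes were the 10 bright ones in each direction with the smallest p and one sign on both days, plus 2 in each direction for day 2 against day 1 and the 2 brightest. Gene lists could not be used. The comparison, lists and alternatives were chosen with earlier results of these data known.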

Additional observations from a re-analysis of the deposited data

Results flagged for a closer look

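In 90 sets of values (30 probes and array properties on each of the 3 days), 8 held a fish whose gap to the next was large against the range of its group, where chance gives about 4.5. Replicate 7 of day 1 lay at -94.9 in the first component, far below the -28.3 of its nearest neighbour. Replicate 10 of day 2 lay at -123, against -30.1 for its neighbour. The search is for single fish and passes over the pair of low fish on day 0.

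Among the probes lower on days 1 and 2, replicate 10 of day 1 had the highest log2 ratio of its day in C213R081, at 0.35 with the next at -0.02, and in C161R112, at -0.01 with the next at -0.42. Replicate 1 of day 0 was at 0.74 in C214R129, above the next at 0.35. Without that fish the change of C214R129 was -0.34 instead of -0.41.

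Of the bright probes with the smallest p for day 2 against day 1, C152R022 was at -0.83 in replicate 7 of day 1, below the next at -0.45, and at -0.27 in replicate 3 of day 2, below the next at -0.01. C200R049 was at 1.06 in replicate 2 of day 1, above the next at 0.42.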

How the results depend on the processing

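No setting run gave a probe past the adjusted threshold in any of the 7 comparisons to which it was applied. The settings were normexp, no offset, median centring, the authors' table, a log2 intensity above 8, slide (fixed or random), position, tank, the replicate block, the 29 arrays alone, an intensity trend, array weights, the first component, an adjusted p of 0.1, the array titled tank 0 as day 1, the Wilcoxon test (pooled and single days) and, added after seeing the data, the 4 low fish left out. The adjusted p of 0.1 was tried with the main settings only. Tank as a term, the replicate block and the array titled tank 0 were not applied to the comparisons within or between tanks. Leaving out each of the 29 arrays gave 0 to 0. At an unadjusted p under 0.05, the count for days 1 and 2 ran from 112 (intensity above 8) to 1574 (slide as a block). It ran from 145 to 1724 for day 1, 205 to 1793 for day 2, up to 3625 for day 2 against day 1, 207 to 1664 and 132 to 1840 for tanks 1 and 2, and 261 to 1742 for their difference. The lowest counts came from the intensity filter, which leaves fewer and brighter probes, among which the share with a small p was lower too. Median centring gave 3625 for day 2 against day 1, 840 for the tank difference and 727 for tank 1; the cause was not tested. Intervals within 2-fold held for 96.5% of bright probes without the offset and 97.7% with the 29 arrays alone. Of 920 values of the 20 named probes under alternatives, 0 changed sign and 0 passed the threshold. These are refits of the arrays used to choose the probes, many with a single array left out. The kept signs are therefore a description and not a check. Fish that share a replicate number across days are different animals. Their deviations correlated at 0.0248 on average over 26 pairs (-0.5 to 0.608), and the replicate block gave 0 probes for days 1 and 2, with 1236 at an unadjusted p under 0.05. The smallest limma adjusted p of tank 2 ran down to 0.062, with the first component as a covariate. It was also under 0.1 for tank 2 with array weights (0.0722), an intensity trend (0.0728) and slide as a random block (0.0995). For tank 1 it was 0.0939 without the offset, and for day 2 against day 1 it was 0.0985 with median centring. A threshold of 0.1 would have called probes in these settings.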

Other observations

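The array titled day 1 and tank 0 entered no group. The plan was 10 fish at each time and 5 from each tank, while day 0 held 9 fish, with 4 of tank 1. The day of this array was taken from its title, and whether the title is right was not tested. Projected on the components of the 29 fish, it scored 20.4 on the first and -4.67 on the second, within the range of each day. For 4 of the 20 named probes its log2 ratio lay outside the range of all 29 fish: -1.34 in C230R053, -1.41 in C161R112, -0.95 in C032R152 and 0.83 in C058R167. The share of all probes where it did so was not computed, so the count sets neither this array nor these probes apart. In C213R081 it was at -0.35, below every day 0 fish, and in C010R013 at 0.02, inside both groups.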
